A study of Arabidopsis thaliana with 15 samples.

Results

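Cytochrome P450 and glutathione transferase genes were examined in 5 sorted cell populations of the Arabidopsis thaliana root. Members were the probe sets annotated with a single symbol that reads CYP, number, letter, number, or GST, class letter, number. The naming rule itself uses no measured value, although the gene families were taken up with earlier results of these data known. It gave 35 of the 22810 probe sets on the Affymetrix array, 22 for P450s and 13 for glutathione transferases. Of the P450s, 18 belong to the CYP71B subfamily, and the other 4 are CYP84A4, CYP79A2, CYP78A9 and CYP51G2. Of the transferases, 11 are of the tau class, GSTF4 is of the phi class and GSTL3 is of the lambda class. Every member has its own probe set, and no member's probe set carries the suffix that marks probes shared between genes.

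All 15 arrays came from ecotype Columbia seedlings that grew for 5 days on standard medium and then spent 3 h on medium without sulfur. Roots were digested to protoplasts and sorted by fluorescence, with 3 arrays for each population. Marker lines were Pet111 for the columella, where the root cap senses gravity, and pWER::GFP for the epidermis, whose sample also held lateral root cap. The cortex was sorted with pCOR::GFP, the endodermis together with the quiescent center with pSCR::GFP, and the stele, the vascular cylinder, with pWOL::GFP. Every population therefore shared the sulfur-free medium, the cell wall digestion and the sort, and roots kept on full medium were not analysed here. Whether replicates were planted separately is not said in the labels, so the p-values cover only the spread between these arrays, which may be technical.

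Cytochrome P450s are heme enzymes of the endoplasmic reticulum that use electrons from NADPH to insert an oxygen atom into small molecules. In plants they shape hormones, sterols, phenolic compounds, glucosinolates and other defence compounds. Glutathione transferases join the sulfur-containing tripeptide glutathione to electrophilic compounds, which marks these for transport into the vacuole. The tau class is plant-specific and is known for conjugating herbicides and other foreign compounds, while lambda enzymes carry a cysteine in the active site and transfer thiols instead of conjugating.

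Levels below are log2(signal + 16) after quantile normalization, a scale on which 4 is a signal of 0, and differences on it understate the changes of dim probe sets. A level belongs to its own probe set and is compared between populations, never between probe sets. The arrays of each sorted population were a bulk RNA sample, in which fewer cells of a type and less RNA per cell cannot be told apart. Median deposited signal per array ran from 46.1 to 80.9. The best-correlated partner of an array came from its own population for 12 of the 15. The exceptions were epidermis replicate 2 and stele replicate 2, nearest to each other (r = 0.973 across tested probe sets), and stele replicate 1, nearest to epidermis replicate 3 (r = 0.965). Within its own population, the best r was 0.826 for epidermis replicate 2, 0.845 for stele replicate 1 and 0.962 for stele replicate 2. Populations were kept as labelled. Epidermis replicate 2 and stele replicate 1 are called the arrays that stand apart, and calls that change without both are given beside the labelled ones. All 3 tested genes listed as cortex markers, AT1G62510, NPF6.4 and JKD, were called higher in the cortex, where their summed signal was 2200 to 2650. All 3 were also called higher in the endodermis, at 408 to 448, against at most 34.4 in any other array. JKD did not separate these populations, with mean levels of 7.40 in the cortex and 7.35 in the endodermis. AT1G62510 (10.83 and 7.54) and NPF6.4 (8.93 and 6.84) were lower in the endodermis than in the cortex. Both tested epidermis markers, EXPA7 and EXPA18, were called higher in the epidermis, with a summed signal of 589 to 887. Stele arrays overlapped this range, at 81.2 to 633. LHW was called higher in the stele and PHV, the other tested stele marker, was not. Their summed signal was 311 to 2010 in the stele and overlapped that of the epidermis, at 243 to 1530. Of 2 tested wound and protoplasting genes, ZAT10 was called higher (2.02) and WRKY53 lower (-1.05) in the columella, where their summed signal was 3830 to 5610, against 713 to 2400 on the other arrays. Of 3 tested mitosis genes, AUR1 (-1.92) and AUR2 (-3.72) were called lower in the cortex, with a summed signal of 56.5 to 75.7 for all 3, against 340 to 761 elsewhere. Of 2 tested quiescent center and stem cell genes, AGL42 was called higher in the endodermis (1.13) and BBM lower in the cortex (-1.73). The part of these genes in the members' columella, cortex and endodermis values was not tested. No root cap or endodermis marker on the lists could be matched to a probe set here, so these labels were not checked by their defining genes.

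Of the 35 members, 21 had a signal above the 40th percentile of the array on at least 3 arrays and could be tested. These were 10 P450s, of which 7 were CYP71B genes, and 11 glutathione transferases, of which 10 were of the tau class. In the limma F test for equal population means, 19 of the 21 passed at an adjusted p under 0.05, or 90.5%, beside 66.1% of all 16126 tested probe sets. A dim gene passes the filter only through the population in which it is bright, and 10 of the 21 were above the threshold on 3 to 9 arrays, so this count is a description. The exceptions were GSTU23 (adjusted p = 0.136) and CYP51G2 (adjusted p = 0.0504). Without both arrays that stand apart, 21 of 21 passed, beside 83.1% of probe sets. The gap between a member's highest and lowest population mean ran from 1.00 to 5.33 log2, with a median of 2.2 for the members and 1.36 for all tested probe sets. For 9 of the 21, all 3 arrays of the highest population lay above the other 12, which held for 27.2% of all tested probe sets. The filter's limit holds for these gaps and for this count too, and they are descriptions.

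**Figure D1:**
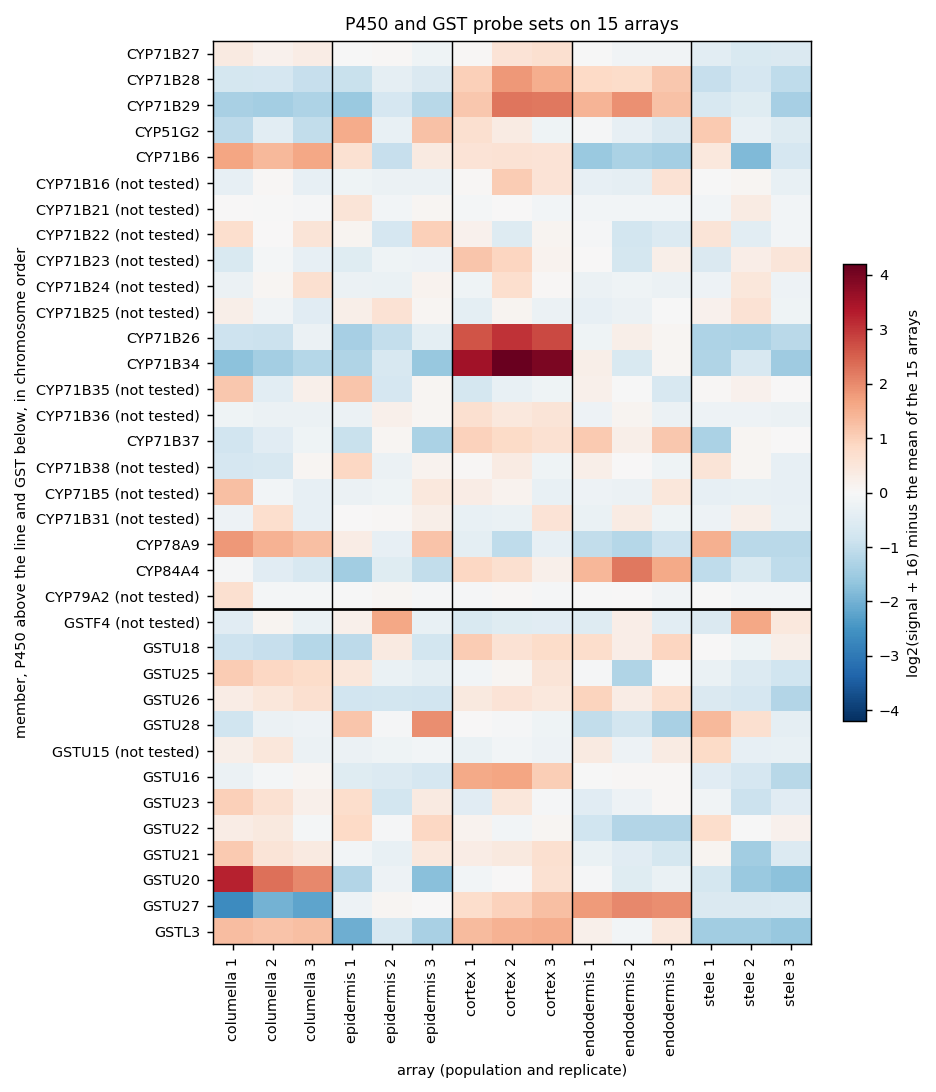
Log2 level of each of the 35 members on each of the 15 arrays, shown as the difference from that member's mean over all arrays; columns are arrays grouped by population and rows are members in chromosome order, P450s above the line and glutathione transferases below. The cortex columns are high for CYP71B34 and CYP71B26, the columella columns for GSTU20, and the cortex and endodermis columns for CYP71B28, CYP71B29 and GSTU27.

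Each population was then set against the mean of the other 4, and a call required a log2 difference of 1 or more in size together with an adjusted p under 0.05. In the cortex, 9 tested members were called higher (background 13.3%) and 0 lower (background 14.6%). The count of 0 lower was also 0 at an unadjusted p in limma, while the deposited scaling gave 1, CYP78A9 at -1.09 (adjusted p = 0.0339). Columella calls were 5 higher and 5 lower, beside 11.7% of all probe sets in each direction. The endodermis had 5 higher (background 7.83%) and 3 lower (background 3.42%). The epidermis had 1 higher (background 6.95%) and 6 lower (background 6.1%). In the stele 0 were called higher (background 6.5%; 0 at an unadjusted p as well) and 8 lower (background 5.89%).

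The differences of a member cancel out over the 5 populations by construction, so its high values in some populations force low values in others. The median difference of the tested members was 0.72 in the cortex and -0.80 in the stele, beside -0.07 and 0.00 for all tested probe sets. It was -0.10 in the columella, -0.62 in the epidermis and -0.13 in the endodermis. For 8 of the 21 the cortex had the highest mean, for 6 the columella, for 4 the endodermis, for 3 the epidermis and for 0 the stele. As shares these are 38.1%, 28.6%, 19%, 14.3% and 0%, beside 25.1%, 26.1%, 13.5%, 18.3% and 17.1% of all tested probe sets in the same order. The limit that the filter sets on the F test count holds here too. CYP71B34 was above its threshold on 5 arrays, and CYP71B26, CYP71B28, CYP71B29 and CYP71B37 on 6 each. These genes were brightest in the cortex or the endodermis, so the counts of calls, the medians and the shares are descriptions.

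Enrichment required the same size and adjusted p in each of the 4 comparisons of a population with another one. The cortex had 3 enriched members, CYP71B34, CYP71B26 and GSTU16 (background 4.48%). GSTU20 was enriched in the columella (background 5.78%) and CYP84A4 in the endodermis (background 1.84%). The epidermis and the stele had 0 enriched members, beside 0% of all probe sets in each, and 0 at an unadjusted p. In all, 5 of the 21 were enriched in some population, beside 12.1% of all tested probe sets. Of these, CYP71B34 was above the filter's threshold on 5 arrays, CYP71B26 on 6, GSTU16 and GSTU20 on 9 each and CYP84A4 on 15. The filter's limit therefore holds for the counts of enriched members too, and they are descriptions.

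Without epidermis replicate 2 and stele replicate 1, the epidermis had 4 higher members (background 11.6%) and 8 lower (background 12.4%). It then had 2 enriched members, GSTU28 and CYP51G2 (background 1.68%). The stele had 12 lower (background 11%) and still 0 higher (background 12.9%). It had 0 enriched members (background 2.82%). In the cortex 8 were higher (background 14.2%), 0 lower (background 16.4%) and 3 enriched (background 4.76%). Columella counts were 5 higher (background 12.3%), 5 lower (background 12.8%) and 1 enriched (background 5.56%). Endodermis counts were 5 higher (background 9.18%), 4 lower (background 4.71%) and 1 enriched (background 2.17%). In all, 7 members were then enriched in some population, beside 17% of tested probe sets. Counts without both arrays carry the filter's limit as well.

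**Figure D2:**
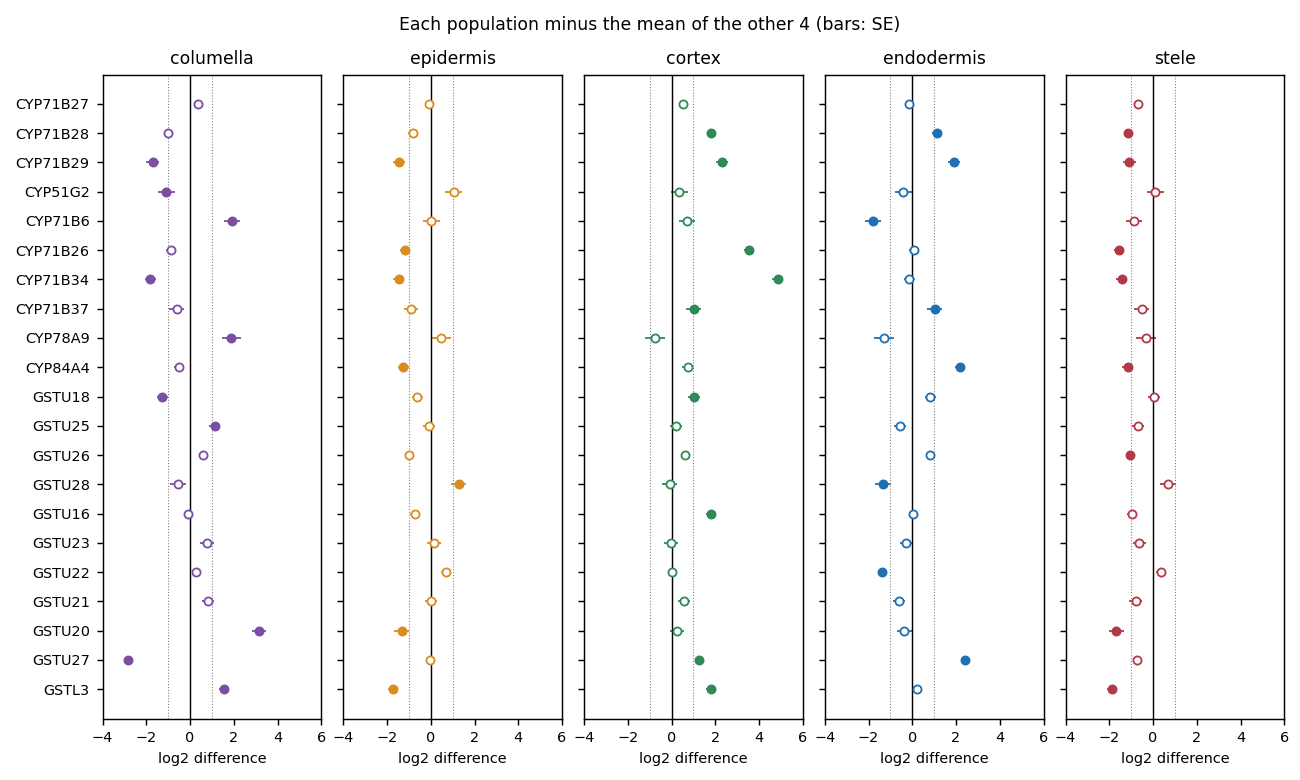
Log2 difference of each population from the mean of the other 4, for the 21 tested members, with bars for the standard error from limma and dotted lines at the threshold of 1; filled points were called. CYP71B34 and CYP71B26 stand farthest to the right in the cortex at 4.85 and 3.52, and GSTU27 farthest to the left in the columella at -2.84.

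The largest differences came from CYP71B26 (AT3G26290) and CYP71B34 (AT3G26300), which lie next to each other on chromosome 3 in the order of coding genes of the TAIR10.1 annotation. CYP71B is a large plant P450 subfamily, many of whose members have no assigned substrate. CYP71B34 had levels of 9.74, 10.34 and 10.17 in the cortex and of 6.45, 5.55 and 6.28 in the endodermis. In the columella it was at 4.48, 4.76 and 5.02, in the epidermis at 4.95, 5.52 and 4.60, and in the stele at 4.93, 5.54 and 4.70. All cortex arrays were above all others by a wide margin, and the columella, epidermis and stele arrays overlapped. As deposited signal, the cortex mean was 1121 ± 240.2 (SD, n = 3), and the highest of the other means was 53.0 ± 19.3 (SD, n = 3) in the endodermis. The cortex was 4.85 ± 0.26 log2 above the mean of the other populations (SE; 28.9-fold on this scale; limma adjusted p = 1.13e-08). CYP71B34 was above the filter's threshold on 5 arrays, so the fold is taken against dim populations, and it moved between 3.70 and 5.71 log2 with the pseudocount. Endodermis levels were above those of the columella by 1.34 ± 0.33 log2 (SE, adjusted p = 0.00555). Calls of lower level fell to the columella (-1.81), the epidermis (-1.47) and the stele (-1.43).

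CYP71B26 followed the same order at its top. Its levels were 8.49, 8.89 and 8.65 in the cortex, and 5.67, 6.12 and 5.95 in the endodermis. The other 9 arrays lay between 4.47 and 5.60, below every endodermis array. The cortex difference was 3.52 ± 0.22 log2 (SE; 11.5-fold; adjusted p = 4.4e-08), and CYP71B26 was called lower in the epidermis (-1.17) and the stele (-1.56). The epidermis call ended without epidermis replicate 1, at -0.94, and both ended with a pseudocount of 64 (-0.74 and -0.90). The cortex difference ran from 2.43 to 4.39 over the alternatives. CYP71B26 was above the filter's threshold on 6 arrays, so its fold, too, is taken against dim populations. Over the 15 arrays the levels of these neighbours had a Pearson r of 0.95. The arrays share populations and the correlation mainly describes the cortex arrays against the rest.

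The next genes of the same run passed the filter's threshold on few arrays or none. CYP71B35, adjacent to CYP71B34, was above the filter's threshold on 2 arrays and was not tested. Its levels were between 4.13 and 4.71 in the cortex, where its neighbour was highest, and reached 6.01 and 6.03 on columella replicate 1 and epidermis replicate 1. CYP71B36 was above the threshold on 0 arrays, with cortex levels of 4.97, 4.74 and 4.83 and no other array above 4.52. The correlation over 15 arrays was -0.45 between CYP71B34 and CYP71B35 and -0.49 between CYP71B35 and CYP71B36, both resting on values near the floor.

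CYP71B37, next to CYP71B36, was above the threshold on 6 arrays. Its levels were 6.36, 6.21 and 6.06 in the cortex and 6.49, 5.64 and 6.53 in the endodermis, against 4.06 to 5.49 on the other 9 arrays. Cortex and endodermis arrays overlapped each other and lay above all the rest. It was called higher in the cortex by 1.01 log2 and in the endodermis by 1.02. Both calls lie at the threshold. The cortex call ended without any of columella 1, epidermis 1, epidermis 3, endodermis 2, stele 1 or any cortex array, at 0.90 to 1.09 log2. The endodermis call ended without any array but epidermis 2, endodermis 2, stele 2 and stele 3, at 0.87 to 1.05 log2. The deposited scaling ended both, at 0.71 in the cortex (adjusted p = 0.12) and 1.02 in the endodermis (adjusted p = 0.064), and with pseudocounts of 1 and 64, with values from 0.48 to 1.84. Array weights ended the cortex call (0.90), and the replicate block (adjusted p = 0.0522) and the absence of a filter (0.0567) the endodermis call. Without both arrays that stand apart, the cortex difference was 0.99, no longer a call, and the epidermis was called lower (-1.41).

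**Figure D3:**
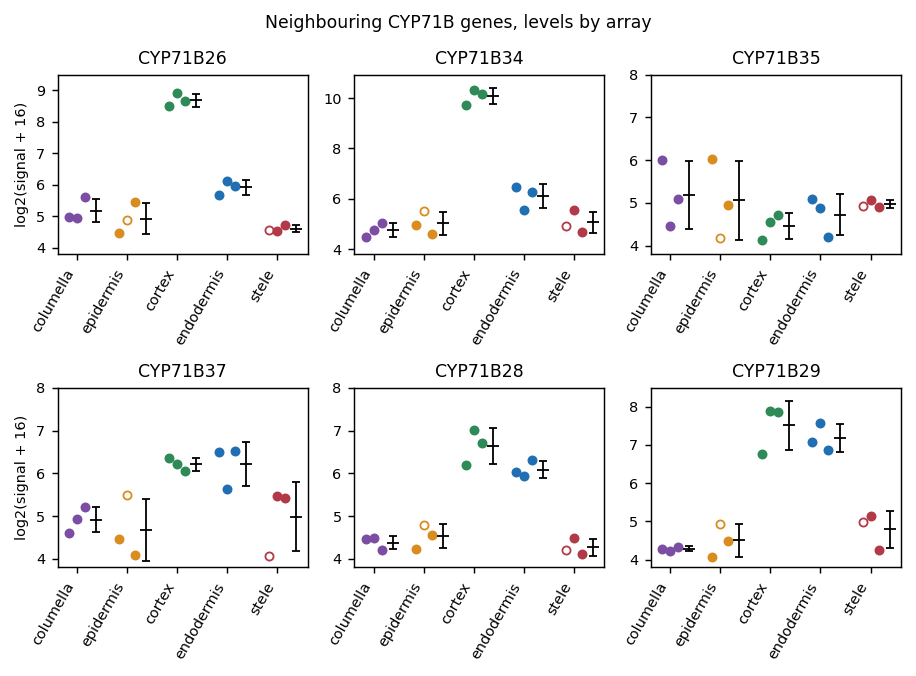
Log2 level by population for 6 CYP71B genes, CYP71B26, CYP71B34, CYP71B35 and CYP71B37 from the run on chromosome 3 and the pair CYP71B28 and CYP71B29 from chromosome 1; points are arrays, black marks the mean ± SD (n = 3), and open points are epidermis replicate 2 and stele replicate 1. CYP71B34 and CYP71B26 are high in the cortex arrays alone, while CYP71B28 and CYP71B29 are high in both cortex and endodermis.

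CYP71B28 and CYP71B29, adjacent on chromosome 1, were high in the cortex and the endodermis alike. CYP71B29 had levels of 6.77, 7.89 and 7.87 in the cortex and 7.07, 7.58 and 6.87 in the endodermis. The other 9 arrays ran from 4.08 to 5.15, with no overlap. CYP71B29 was above the filter's threshold on 6 arrays, so its differences are taken mostly against dim populations. Its cortex difference was 2.32 ± 0.28 log2 (SE, adjusted p = 1.27e-05) and its endodermis difference 1.90 ± 0.28 (SE, adjusted p = 0.000253), both called. Calls of lower level were made in the columella (-1.71), the epidermis (-1.44) and the stele (-1.08), the last of which ended without stele replicate 3 (-0.80, adjusted p = 0.0992) or under the deposited scaling (-0.98). The columella (-0.89), epidermis (-0.79) and stele (-0.67) calls ended at a pseudocount of 64, and over the alternatives the cortex difference ran from 1.34 to 3.56 and that of the endodermis from 1.01 to 3.11.

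CYP71B28 was at 6.19, 7.0 and 6.72 in the cortex and 6.02, 5.94 and 6.30 in the endodermis, and at 4.10 to 4.80 elsewhere. Here too the cortex and endodermis arrays stood above all others and overlapped each other. CYP71B28 was likewise above the filter's threshold on 6 arrays, and its differences are taken mostly against dim populations. Differences were 1.82 ± 0.21 log2 in the cortex and 1.13 ± 0.21 in the endodermis (SE), and it was called lower in the stele (-1.14). All 3 calls ended with a pseudocount of 64, at 0.92, 0.47 and -0.51, and a pseudocount of 1 gave 3.13, 2.29 and -2.44. The pair had a Pearson r of 0.96 over the 15 arrays. The cortex markers were also called higher in the endodermis, at the summed signals given above, and their part in the endodermis values of CYP71B28, CYP71B29 and CYP71B37 was not tested.

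CYP71B27, on 13 arrays above the filter's threshold, varied least among the tested CYP71B genes, with levels from 5.52 to 6.86 over all 15 arrays. It passed the F test, and cortex exceeded stele by 1.00 ± 0.22 log2 (SE, adjusted p = 0.0018), but no population was called against the mean of the others. CYP71B6 (AT2G24180) takes part in turning indole-3-acetonitrile into indole-3-carboxylic acid, a route of tryptophan-derived defence metabolism. It had levels of 11.14, 10.84 and 11.09 in the columella, and 10.04, 10.08 and 10.05 in the cortex. The endodermis was at 7.93, 8.13 and 8.04, the epidermis at 10.11, 8.53 and 9.86, and the stele at 9.94, 7.62 and 8.78. All columella arrays were above all others, and the spread was widest in the epidermis and stele, where replicates differed by over 1 log2. The columella was called higher for CYP71B6, with 1.93 ± 0.37 log2 (SE; 3.81-fold; adjusted p = 0.000804), and the endodermis lower (-1.80 ± 0.37, SE, adjusted p = 0.00326). Without the arrays that stand apart it was also called lower in the stele, by -1.58 ± 0.22 log2 (SE, adjusted p = 2.48e-05).

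Single members of other P450 subfamilies each had their own pattern. CYP84A4 (AT5G04330) is a paralogue of ferulate 5-hydroxylase, the P450 that commits phenolic precursors to syringyl lignin, and itself acts in the synthesis of arabidopyrones. Its levels were 8.77, 9.61 and 8.99 in the endodermis, 8.27, 8.06 and 7.62 in the cortex, and 7.33, 6.93 and 6.73 in the columella. Epidermis levels were 5.93, 6.89 and 6.36 and stele levels 6.33, 6.75 and 6.32. Endodermis arrays were highest, cortex arrays next, and neither overlapped any other population. The endodermis was 2.17 ± 0.24 log2 above the others (SE; 4.49-fold; adjusted p = 2.2e-05) and 1.15 ± 0.30 above the cortex alone (SE, adjusted p = 0.0142). CYP84A4 was called lower in the epidermis (-1.25) and the stele (-1.16), calls that ended with a pseudocount of 64 at -0.95 and -0.90, the stele one also under the deposited scaling and array weights at just under 1 in size.

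CYP78A9 (AT3G61880), a relative of the KLUH P450 that promotes fruit and seed growth, was at 8.92, 8.56 and 8.38 in the columella. Levels were 7.40, 6.75 and 8.31 in the epidermis and 8.61, 5.98 and 5.96 in the stele, while cortex and endodermis arrays ran from 5.92 to 6.75. Stele replicate 1 thus reached the columella values and lay over 2 log2 above the other stele arrays. Its columella call had a difference of 1.89 ± 0.45 log2 (SE, adjusted p = 0.00394). Without both arrays that stand apart it was also called higher in the epidermis, by 1.08 ± 0.25, and lower in the stele, by -1.30 ± 0.25, and the endodermis, by -1.18 ± 0.21 (SE).

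CYP51G2, a relative of the sterol 14-demethylase CYP51G1, had levels of 7.74, 5.86 and 7.42 in the epidermis, 7.27, 5.87 and 5.65 in the stele, and 5.09, 5.72 and 5.14 in the columella. The cortex was at 6.85, 6.52 and 6.01 and the endodermis at 6.11, 5.84 and 5.58. Epidermis replicate 2 sat among the lower stele arrays and stele replicate 1 among the higher epidermis arrays. As labelled, CYP51G2 did not pass the F test. Its columella difference of -1.08 ± 0.38 log2 (SE, adjusted p = 0.0355) met the call, and this call ended without any of columella 1, columella 3, epidermis 1, cortex 1, endodermis 1 or stele 1 (-0.96 to -1.04), and with a pseudocount of 64 (-0.62) or array weights (-0.99). Without both arrays that stand apart, the epidermis was 1.75 ± 0.26 log2 above the others (SE, adjusted p = 4.07e-05) and CYP51G2 was enriched there.

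The 12 P450s that could not be tested were CYP79A2 and 11 CYP71B genes. CYP79A2, which turns phenylalanine into the aldoxime precursor of benzylglucosinolate, lay between 4.06 and 4.88 on all arrays. CYP71B31, an enzyme of linalool metabolism in flowers, lay between 4.04 and 5.07. CYP71B5, CYP71B16, CYP71B21, CYP71B24, CYP71B25 and CYP71B38 lay between 4.06 and 5.86. At the edge of the filter, CYP71B23 was above the threshold on 2 arrays, with cortex levels of 6.0, 5.73 and 4.96. CYP71B22 and CYP71B35 were also above it on 2 arrays, while CYP71B34, the tested P450 above it on the fewest arrays, reached 5. When the filter was dropped, 1 of the 14 untested members passed the F test, CYP71B36 (adjusted p = 0.00404), beside 47% of all 22746 probe sets.

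Among the glutathione transferases, the neighbours GSTU20 to GSTU23 on chromosome 1 had their highest mean in the columella, except GSTU22, which had it in the epidermis. For GSTU22 the epidermis difference from the mean of the others was 0.69 and was not called. Its epidermis mean exceeded that of the stele, the next population, by 0.26 ± 0.26 log2 (SE, limma adjusted p = 0.841). GSTU20 (AT1G78370), whose protein binds the jasmonate-conjugating enzyme FIN219, had columella levels of 9.21, 8.29 and 8.0. Cortex levels were 5.89, 6.0 and 6.64, endodermis levels 5.92, 5.47 and 5.70, epidermis levels 4.76, 5.78 and 4.22, and stele levels 5.26, 4.44 and 4.25. The columella arrays lay above all others without overlap, while endodermis overlapped both cortex and epidermis. GSTU20 was 3.14 ± 0.33 log2 higher in the columella (SE; 8.81-fold; adjusted p = 4.49e-06) and exceeded the cortex, the next population, by 2.32 ± 0.42 (SE, adjusted p = 0.000405). It was called lower in the stele (-1.68) and the epidermis (-1.33). That epidermis call ended without epidermis replicate 1 (-1.26, adjusted p = 0.0533) or replicate 3 (-0.99, adjusted p = 0.071). With a pseudocount of 64 both lower calls ended (-0.94 and -0.79), and the columella difference was 2.16.

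GSTU21, beside it, had levels of 6.95, 6.41 and 6.23 in the columella and 6.18, 6.27 and 6.52 in the cortex. Endodermis arrays were at 5.14 to 5.59, epidermis arrays at 5.54 to 6.31, and the stele at 5.97, 4.40 and 5.29. GSTU21 passed the F test with no call, and its largest gap, columella over stele, was 1.31 ± 0.36 log2 (SE, adjusted p = 0.0108). Without both arrays that stand apart it was called lower in the stele, by -1.21 ± 0.27 (SE, adjusted p = 0.0017). GSTU22, the next gene, was lowest in the endodermis. Its levels there were 11.51, 11.11 and 11.14, against 12.22 to 13.21 on the other 12 arrays, with no overlap. The endodermis difference was -1.37 ± 0.21 log2 (SE; 2.59-fold lower; adjusted p = 0.000352). An epidermis call was added without both arrays that stand apart, higher by 1.04 ± 0.17 (SE, adjusted p = 0.000129). In GSTU23 levels ran from 5.30 to 6.08 in the columella and from 4.19 to 5.83 elsewhere, and it did not pass the F test. Over the 15 arrays, r was 0.66 between GSTU20 and GSTU21, 0.43 between GSTU21 and GSTU22, and 0.36 between GSTU22 and GSTU23.

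GSTU25 and GSTU26, also adjacent on chromosome 1, were above the filter's threshold on all 15 arrays. GSTU25, known for conjugating the explosive TNT, was at 13.32, 13.10 and 13.02 in the columella and between 10.98 and 12.78 on all other arrays. All columella arrays exceeded the rest, and the other populations overlapped. The columella difference was 1.13 ± 0.26 log2 (SE; 2.18-fold; adjusted p = 0.00297), a call that array weights ended at 0.98. GSTU26 separated 3 populations from the others. Its levels were 11.64 to 11.99 in the columella, 11.74 to 11.91 in the cortex and 11.64 to 12.27 in the endodermis, against 10.51 to 10.54 in the epidermis and 10.08 to 10.72 in the stele. It was called lower in the stele (-1.05 ± 0.17, SE, adjusted p = 0.000796), a call that ended without stele replicate 3 (-0.86). The epidermis difference of -0.99 ± 0.17 (SE, adjusted p = 0.000971) fell just short of the threshold of 1.

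GSTU27 (AT3G43800), a tau-class gene, had a level of its own in each population. It was at 12.21, 12.42 and 12.35 in the endodermis, 11.15, 11.37 and 11.68 in the cortex, and 10.21, 10.48 and 10.43 in the epidermis. Stele levels were 9.81, 9.80 and 9.83, and columella levels 7.78, 8.43 and 8.21. No 2 populations overlapped. The columella was lower by 2.84 log2 with an SE of 0.16 (a difference of -2.84; 7.15-fold; adjusted p = 1.99e-08), and the endodermis (2.39 ± 0.16, SE) and the cortex (1.24 ± 0.16, SE) were called higher. Cortex markers were also called higher in the endodermis, at the summed signals given above, and their part was not tested.

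**Figure D4:**
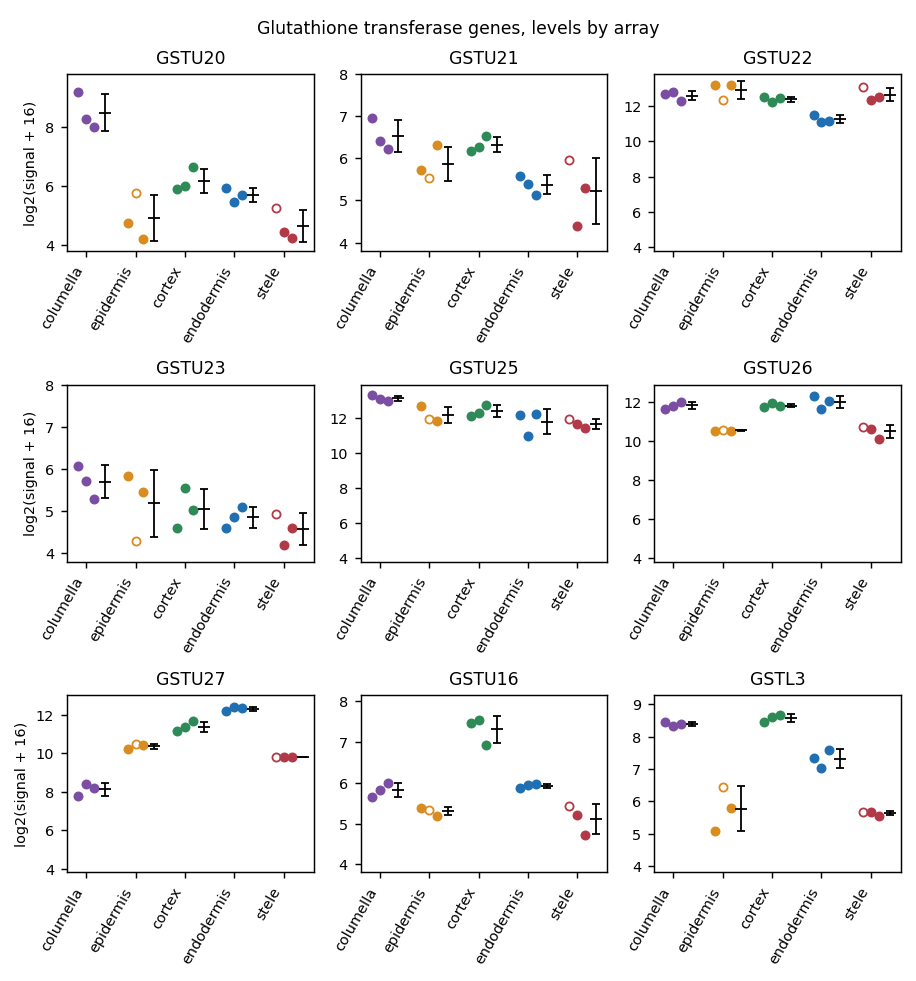
Log2 level by population for 9 glutathione transferase genes; points are arrays, black marks the mean ± SD (n = 3), and open points are epidermis replicate 2 and stele replicate 1. GSTU20 is high in the columella and GSTU16 in the cortex. GSTU27 is highest in the endodermis and next in the cortex, and GSTU22 is lowest in the endodermis.

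GSTU16 was brighter in the cortex, and GSTU18 in the cortex and the endodermis. For GSTU18 these populations overlapped and differed by 0.17 ± 0.33 log2 (SE, limma adjusted p = 0.774). GSTU16 had cortex levels of 7.47, 7.55 and 6.94 and between 4.72 and 5.99 on the other 12 arrays. With no overlap, the cortex was 1.78 ± 0.19 log2 higher (SE; 3.44-fold; adjusted p = 5.18e-06), and it exceeded the nearest population, the endodermis, by 1.39 ± 0.24 (SE, adjusted p = 0.000998). GSTU16 was also called lower in the stele (-1.12 ± 0.23, SE) without both arrays that stand apart. GSTU18 was at 6.81, 6.34 and 6.51 in the cortex, 6.48, 6.03 and 6.65 in the endodermis, and 4.87, 4.78 and 4.54 in the columella. Epidermis replicate 2, at 6.12, lay above epidermis replicates 1 and 3, at 4.63 and 4.97, and near the stele arrays, at 5.56 to 5.98. GSTU18 was called lower in the columella (-1.26 ± 0.26, SE, adjusted p = 0.00162). It was called higher in the cortex at 1.02 ± 0.26 (SE), a call that ended, at 0.91 to just under 1.00, without any of columella 3, epidermis 1, epidermis 3, cortex 1, endodermis 2 or stele 2. The deposited scaling ended it as well (0.69, adjusted p = 0.0743), as did the pseudocount of 64 (0.55), which ended the columella call too (-0.61). GSTU18 was also called lower in the epidermis (-1.05) without both arrays that stand apart.

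GSTL3 (AT5G02790), the lambda-class member, was high in the columella and the cortex. Its levels were 8.44, 8.31 and 8.38 in the columella, 8.45, 8.60 and 8.67 in the cortex, and 7.35, 7.01 and 7.58 in the endodermis. Epidermis levels were 5.07, 6.45 and 5.78, and stele levels 5.66, 5.66 and 5.55. Columella and cortex stood above the endodermis and all of these above the epidermis and stele. It was called higher in the cortex by 1.81 ± 0.23 log2 and in the columella by 1.56 ± 0.23, and lower in the epidermis by -1.71 ± 0.23 and the stele by -1.88 ± 0.23 (SE, adjusted p from 1.94e-05 to 0.000244).

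GSTU28 was the member called higher in the epidermis. Its levels were 8.60, 7.39 and 9.40 in the epidermis and 8.81, 8.12 and 7.07 in the stele, which overlapped. The cortex was at 7.27 to 7.47, the columella at 6.60 to 7.22 and the endodermis at 6.09 to 6.66, below all other arrays except one columella array. The epidermis difference was 1.27 ± 0.36 log2 (SE, adjusted p = 0.019), and it ended as a call without epidermis replicate 1 (adjusted p = 0.0873) or replicate 3 (0.151). Without both arrays that stand apart it was 1.92 ± 0.27 (SE, adjusted p = 3.03e-05). The endodermis was called lower (-1.33), a call that ended without endodermis replicate 1 (adjusted p = 0.0759) or replicate 3 (0.117) and, at just under 1 in size, with a pseudocount of 64.

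The other 2 transferases were not tested. GSTU15 lay between 4.06 and 5.23 on all arrays. GSTF4, the phi-class member, was above the threshold on 2 arrays, epidermis replicate 2 and stele replicate 2, both at 6.36, and its next highest level was 5.18 on stele replicate 3. At the inner edge of the filter, GSTU23 was above the threshold on 3 arrays.

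How much the arrays that stand apart weigh on members was read from the gap between epidermis replicates 1 and 3 and stele replicates 2 and 3. This gap was at least 1 log2 for 7 tested members, CYP78A9, CYP51G2, CYP71B6, GSTU28, GSTU23, GSTU21 and CYP71B37. Epidermis replicate 2 lay nearer to the stele mean in 6 of these, all but GSTU21. Stele replicate 1 lay nearer to the epidermis mean in 6 as well, all but GSTU23. For all 3699 tested probe sets with such a gap, the shares were 93.1% and 87.3%. CYP78A9 had a mean level of 7.85 on epidermis replicates 1 and 3 and 5.97 on stele replicates 2 and 3, while epidermis replicate 2 was at 6.75 and stele replicate 1 at 8.61. CYP71B34, CYP71B26, GSTU16, GSTU20 and CYP84A4 had gaps of at most 0.39.

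**Figure D5:**
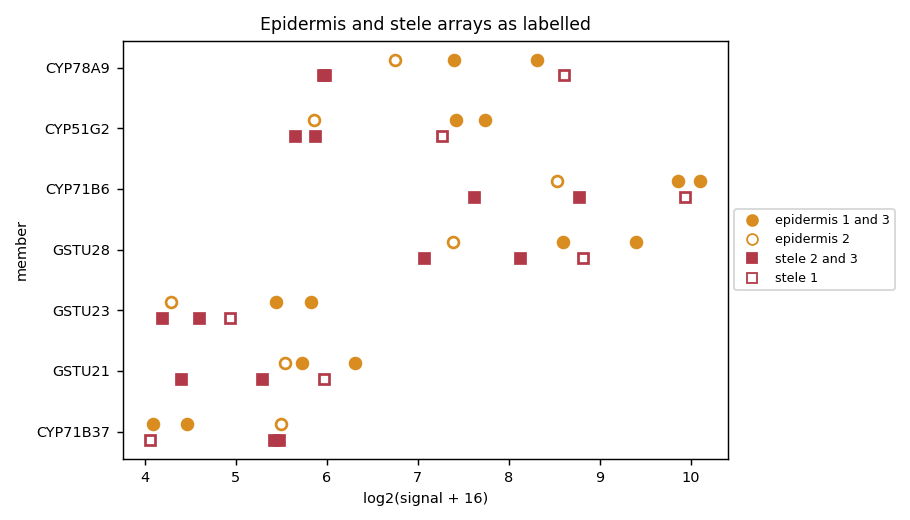
Log2 level of the 7 tested members whose epidermis replicates 1 and 3 and stele replicates 2 and 3 differ by at least 1; each point is an array, circles are epidermis and squares stele, and open symbols mark epidermis replicate 2 and stele replicate 1. In 6 of the 7 epidermis replicate 2 lies nearer to the stele mean, and in 6 stele replicate 1 lies nearer to the epidermis mean.

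Few other genes of these pathways could be matched. None of the listed P450 redox partners, glutathione peroxidases, dehydroascorbate reductases or vacuolar conjugate transporters had a named probe set here. The 17 listed suberin and cutin genes other than P450s had none either. P450 lists for cutin, suberin and fatty acid hydroxylation (27 genes), carotenoids (3) and stress and xenobiotic response (7) had none. Neither did the 12 listed P450s of gibberellin, abscisic acid, cytokinin and strigolactone. Of 19 listed genes of glutathione synthesis and turnover, 2 were tested and both passed the F test. GR1, for the cytosolic glutathione reductase that regenerates reduced glutathione, was called lower in the columella (-1.91 ± 0.17, SE, adjusted p = 8.85e-07) and higher in the cortex (1.12 ± 0.17, SE, adjusted p = 8.78e-05). GR, for the reductase of plastids, was called in no population, with a cortex difference of 0.77.

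Of 21 listed phenylpropanoid genes other than P450s, 3 were tested, and all 3 passed the F test and were called lower in the columella. HCT, for a hydroxycinnamoyl transferase of lignin precursor synthesis, was called higher in the cortex (2.02 ± 0.44) and the endodermis (2.10 ± 0.44, SE), the populations in which CYP84A4 was brightest. CCR2, a cinnamoyl-CoA reductase gene, was called higher in the endodermis by 4.87 ± 0.59 log2 (SE, adjusted p = 4.74e-05), with levels of 9.81 to 10.50 there. F6'H1, for the hydroxylase that opens the route to the coumarin scopoletin, had a called cortex difference of 4.64 ± 0.26 (SE, adjusted p = 1.42e-08) and was called lower in the endodermis (-1.56).

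From the 25 listed genes of glucosinolate and camalexin metabolism other than P450s, 1 probe set stood for UGT74B1 and 1 for PYK10, a root beta-glucosidase also listed as BGLU23. UGT74B1, a glucosyltransferase of glucosinolate synthesis, was called higher in the cortex (1.41) and endodermis (1.05) and lower in the epidermis (-1.07). PYK10 passed the F test (adjusted p = 0.0133) with no call, and its largest difference was 0.53 in the cortex. For these genes outside the members, leaving out single arrays was not tried.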

How the data were processed

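Biotin-labelled RNA of sorted cells, amplified in 2 cycles per the labels' protocols, was measured on 1 array per sample. The authors deposited a linear signal intensity for each of 22810 probe sets, computed by MAS5 per the submitters' processing notes, which name no version of it. With 15 arrays, their number limits the precision, and no read depth applies.

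With R 4.3.3 and limma 3.58.1, the signal of all probe sets was quantile-normalized and then turned into log2(signal + 16). Probe sets whose deposited signal exceeded an array's 40th percentile on 3 arrays or more were kept. Percentiles were taken over the whole array, and the 64 control probe sets were dropped afterwards, which left 16126. lmFit and eBayes with a variance trend gave the F test and the contrasts, with Benjamini-Hochberg adjustment over all tested probe sets; the procedure was tested on simulated data. Figures used Python 3.11.15 and matplotlib 3.10.9.

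Of all probe sets, 13513 had 1 symbol in the platform annotation, 503 had several and 8794 were unnamed here, so P450 and GST genes without a single symbol of the stated form are not covered. ATGSTF13, CYP718, CYP71B30P and probe sets with 2 symbols were left out by form. Loci and neighbouring genes came from the RefSeq table of TAIR10.1. No sequences or coordinates were used.

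Members and gene lists were chosen with earlier results of these data known. Named with values were, for each population, up to 10 members called higher and 6 called lower, all enriched members, all tested GST genes and all tested members of the role lists; untested members and the other CYP71B genes are named to account for every member. Same-numbered arrays' deviations from their population means correlated at -0.52 to 0.72 (median -0.01), above 0.1 in 5 of 30 pairs. Epidermis with stele, the populations of the arrays that stand apart, gave 0.59, 0.72 and -0.52, so pairing could not be judged there. Between all other populations r ran from -0.13 to 0.14. Among the columella, cortex and endodermis alone it ran from -0.13 to 0.05, with no sign that replicate numbers pair those arrays. In pairs with the epidermis or the stele, the arrays that stand apart enter the deviations, so pairing could not be judged there either. Alternatives were the deposited scaling, pseudocounts of 1 and 64, a filter at the 60th percentile or none, eBayes without the trend, array weights, a replicate block, leaving out both arrays that stand apart and leaving out each array in turn.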

Additional observations from a re-analysis of the deposited data

How the results depend on the processing

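Of 42 called differences of single members, 21 kept their call under each of the 24 alternatives in which they were tested, 21 lost it under at least 1, and 0 reversed. A pseudocount of 64, which shrinks the differences of dim probe sets, cut the counts of lower members to 2 in the columella (from 5), 2 in the epidermis (from 6) and 3 in the stele (from 8), and of higher members to 3 in the endodermis (from 5). The 60th percentile filter, under which fewer members are tested, gave 5 higher in the cortex (from 9) and 3 in the endodermis. The deposited scaling gave 2 higher in the epidermis (from 1) and 1 lower in the cortex (from 0). Array weights gave 2 higher and 2 enriched in the epidermis (from 0 enriched) and 0 enriched in the endodermis (from 1). Leaving out both arrays that stand apart gave 4 higher and 2 enriched in the epidermis. Apart from the dropped probe sets, the cause was not tested.

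With the replicate block, 2 members were higher in the epidermis in place of 1, and 20 passed the F test in place of 19; no other count moved by over 1.5 times.

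Leaving out 1 array at a time gave 19 to 21 members past the F test. Higher members numbered 5 to 5 in the columella, 0 to 2 in the epidermis, 7 to 9 in the cortex, 4 to 6 in the endodermis and 0 to 0 in the stele. Lower members numbered 5 to 6, 4 to 9, 0 to 0, 2 to 4 and 6 to 12 in the same order, and enriched members 1 to 2, 0 to 0, 3 to 3, 0 to 1 and 0 to 0.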
